A study of Mus musculus with 12 samples.

Results

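The genes described here encode subunits of the mSWI/SNF chromatin remodeler: the PBAF subunits Pbrm1, Arid2, Brd7 and Phf10, the ncBAF subunit Brd9, and the shared core subunits Smarcb1, Smarcc1, Smarcc2, Smarce1 and Actl6a. These 10 genes were taken by a list of their symbols, drawn up with earlier results of these data known, out of 24421 genes in the counts table, and all 10 were among the 11378 genes that passed a filter of a mean of 1 RPKM (reads scaled to exon length and to the library's total). RNA was sequenced from B6 mouse embryonic stem (mES) cells grown in 2i+LIF in which the Brg1 gene (Smarca4) carried a dTag knock-in. The tag lets the small molecule dTAG13 direct the BRG1 protein to degradation. Cells received 0, 0.3, 1, 3, 10 or 100 nM dTAG13 for 24 h, with 2 libraries per dose and 12 in all. The 0 nM controls carried the same knock-in, so untagged cells entered no comparison here, and the study's methods state that the line came from colonies grown from single cells. The study describes its RNA-seq data as coming from independent experiments, while the labels only number the replicates. The p-values of comparisons between doses rest on the spread between the 2 libraries of a dose, estimated over all doses together. Those of a slope along the doses also take in how far the doses depart from a straight line. The labels also give the libraries at 0, 1, 10 and 100 nM one run of library numbers and those at 0.3 and 3 nM another, so that comparing 0.3 or 3 nM with 0 nM also compares these runs, and dose and run cannot be told apart there.

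mSWI/SNF uses the energy of ATP to move or eject nucleosomes, and it is built around BRG1 or its paralog BRM as the ATPase. The assemblies called cBAF, PBAF and ncBAF share BRG1 and some core subunits but differ in others: ARID2, PBRM1, BRD7 and PHF10 belong to PBAF, whereas BRD9 belongs to ncBAF. Shared core is the name of a group in the gene list. It does not mean that each of its genes encodes a subunit of every assembly. In mES cells the complex is known as esBAF in its canonical form and is needed for self-renewal. The question posed by the dose series was how the cells respond to graded amounts of BRG1, and here it is asked of the transcripts of BRG1's partner subunits.

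The genes lie on different chromosomes with the exception of Smarcb1 and Smarcc2, which are both on chromosome 10 at 75896769 to 75921614 and 128459236 to 128490174 (mm10). Actl6a lies on chromosome 3 at 32708546 to 32726971, Phf10 on chromosome 17 at 14944995 to 14961260 and Smarcc1 on chromosome 9 at 110132024 to 110240178. Pbrm1 lies on chromosome 14 at 31019138 to 31121592, Arid2 on chromosome 15 at 96287522 to 96405463 and Brd7 on chromosome 8 at 88332311 to 88362191. Brd9 lies on chromosome 13 at 73937811 to 73960889 and Smarce1 on chromosome 11 at 99209048 to 99231017. The region upstream of the transcription start was available from RefSeq (GRCm38.p6, the assembly behind mm10) for 8 of the 10 genes. The 250 bases before the start are shown for the 3 genes whose transcripts rose along the dose and, for contrast, for 2 whose transcripts did not pass the test. Capitals mark matches, on either strand, to any of 7 short promoter motifs that were searched and are spelled out beside their counts; matches may overlap each other.
Actl6a, chr3:32708296-32708545, plus strand: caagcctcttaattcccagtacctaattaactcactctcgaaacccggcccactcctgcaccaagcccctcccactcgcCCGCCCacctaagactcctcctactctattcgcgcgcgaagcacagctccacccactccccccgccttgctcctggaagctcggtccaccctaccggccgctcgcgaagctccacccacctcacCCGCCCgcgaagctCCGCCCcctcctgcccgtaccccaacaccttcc
Smarcc2, chr10:128458986-128459235, plus strand: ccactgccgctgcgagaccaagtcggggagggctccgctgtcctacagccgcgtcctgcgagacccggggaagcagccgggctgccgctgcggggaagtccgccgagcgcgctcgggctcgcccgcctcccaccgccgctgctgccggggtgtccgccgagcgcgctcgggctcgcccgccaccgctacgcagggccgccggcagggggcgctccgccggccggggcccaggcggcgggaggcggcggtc
Phf10, chr17:14961261-14961510, minus strand: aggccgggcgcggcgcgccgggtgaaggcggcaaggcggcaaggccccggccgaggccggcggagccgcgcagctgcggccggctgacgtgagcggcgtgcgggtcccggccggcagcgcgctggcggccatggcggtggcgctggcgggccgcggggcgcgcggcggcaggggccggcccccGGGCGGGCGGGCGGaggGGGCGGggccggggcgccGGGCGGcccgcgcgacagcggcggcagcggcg
Smarcb1, chr10:75921615-75921864, minus strand: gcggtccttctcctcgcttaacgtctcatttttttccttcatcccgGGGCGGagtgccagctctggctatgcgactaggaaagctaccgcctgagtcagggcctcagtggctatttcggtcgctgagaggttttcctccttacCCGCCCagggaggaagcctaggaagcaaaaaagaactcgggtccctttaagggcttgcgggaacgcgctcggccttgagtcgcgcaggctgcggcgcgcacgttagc
Pbrm1, chr14:31018888-31019137, plus strand: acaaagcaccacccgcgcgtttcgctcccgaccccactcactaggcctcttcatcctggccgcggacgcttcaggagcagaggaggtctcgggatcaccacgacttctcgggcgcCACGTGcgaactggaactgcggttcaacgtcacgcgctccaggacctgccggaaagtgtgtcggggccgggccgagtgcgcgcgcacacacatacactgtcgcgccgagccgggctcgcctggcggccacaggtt

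These windows were rich in G and C, from 59.6% for Smarcb1 to 88.4% for Phf10 over the 8 genes, against a median of 52.4% over 32841 mouse promoter windows of the same length. A GC box, searched as GGGCGG, lay in the window of 6 of the 8 genes and in 32.7% of all promoters. The Phf10 window held 5 matches, 3 of them in one overlapping run, the Actl6a window 3, and the Smarcc2 window none. Among the rising genes the windows thus differed in this motif, and Smarcb1, which did not pass the test, held 2. The E-box of Pbrm1, searched as CACGTG, was the only one among the 8 genes, and 6.02% of all promoters held one. The NRF1 core, searched as GCATGCGC, lay in the window of 1 gene, Smarcc1, and in 2.26% of all promoters. The ETS core, searched as CCGGAAG, lay in those of 2 genes, Smarcc1 and Brd9, and in 6.91% of all promoters. None of the 8 windows held a CCAAT box, found by the letters of its name in 33.9% of all promoters. None held a TATA box, searched as TATAAA and found in 12.4% of all promoters. None held a cyclic AMP response element, searched as TGACGTCA and found in 1.55% of all promoters. The annotated start of Pbrm1 lay 7 bases from that of Gnl3 on the other strand, and that of Brd9 lay 44 bases from the start of Trip13 on the other strand.

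At 0 nM the transcript levels spanned more than an order of magnitude, and the shared core genes held both ends of the range. Smarcc1, which encodes the core scaffold BAF155, was the most abundant at 95.5 ± 0.0733 RPKM (SD, n = 2), and its paralog Smarcc2, encoding BAF170, was the least abundant at 6.68 ± 0.254 RPKM. Actl6a, the actin-related subunit BAF53A, followed Smarcc1 at 72.5 ± 1.56 RPKM. Brd7, a bromodomain subunit of PBAF, stood at 62.1 ± 2.76 RPKM. Smarcb1, the core subunit SNF5, stood at 54 ± 4.36 RPKM, and Phf10, the PHD-finger subunit BAF45A, at 31.2 ± 3.11 RPKM. The next genes in the order were Pbrm1, whose product carries several bromodomains, at 26.9 ± 0.951 RPKM and Smarce1, the HMG-box subunit BAF57, at 26.8 ± 2.5 RPKM. The libraries of these neighbours overlapped, as those of no other neighbouring pair in the order did. Brd9, the bromodomain subunit that marks ncBAF, came at 13.7 ± 0.132 RPKM and Arid2, the ARID-domain subunit of PBAF, at 12.6 ± 0.806 RPKM. The order of the means was the same at every dose, except that Smarce1 stood above Pbrm1 at the 5 doses from 0.3 to 100 nM.

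**Figure D1:**
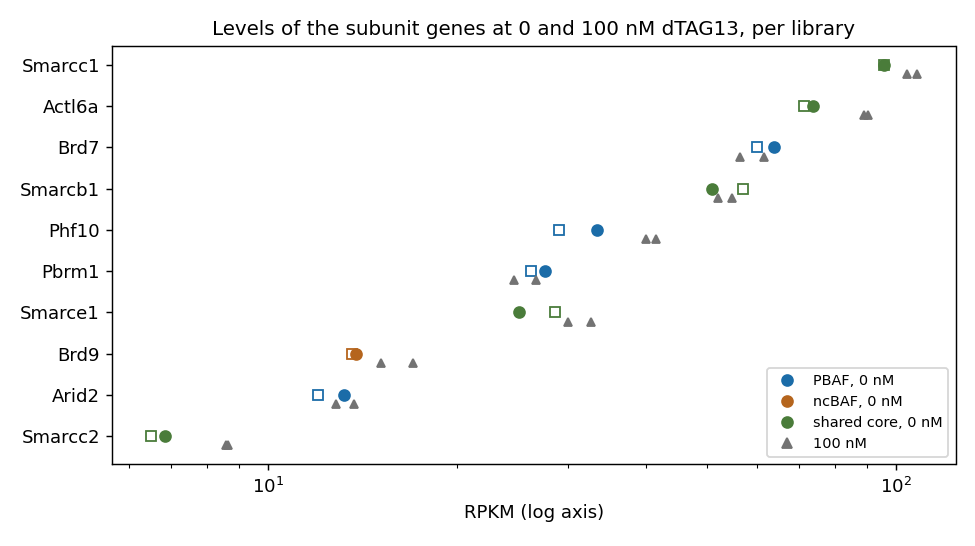
Level of each subunit gene in RPKM on a log axis, for the libraries at 0 nM (filled circle for replicate 1, open square for replicate 2, coloured by complex) and at 100 nM (grey triangles). Smarcc1 lies near 95.5 RPKM at 0 nM and Smarcc2 near 6.68 RPKM. The triangles of Actl6a, Phf10, Smarcc2, Smarcc1, Smarce1 and Brd9 lie to the right of their 0 nM points.

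With 100 nM dTAG13, 4 of the 10 subunit genes rose and none fell: Actl6a, Phf10, Smarcc2 and Smarcc1 passed an adjusted p of 0.05 in the quasi-likelihood test of edgeR, adjusted by the Benjamini-Hochberg method. Of all genes tested, 23.4% were called in this comparison, 10.1% as higher and 13.3% as lower. The changes of the subunit genes were small. None exceeded a fold change of 1.5, a size that 11.2% of all genes reached together with the adjusted p. Their median log2 fold change was 0.185, beside 0.000 over all tested genes. The 100 nM libraries lay wholly above or wholly below the 0 nM libraries for 6 of the 10 genes, and for 61.7% of all genes. The count of 4 rested on single libraries: it was 1 without 0 nM replicate 2 or without 100 nM replicate 1, and 2 without 100 nM replicate 2.

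Among the shared core genes, Actl6a had the smallest adjusted p. Its levels were 73.6 and 71.4 RPKM at 0 nM, 79.3 and 72.6 at 0.3 nM, 80.7 and 80 at 1 nM, 76.6 and 79.1 at 3 nM, 85.1 and 86.9 at 10 nM, then 90.2 and 88.9 at 100 nM. Both libraries at 10 nM and both at 100 nM lay above all libraries of the lower doses. The log2 fold change was 0.25 at 10 nM (SE 0.068, adjusted p = 0.0118 in edgeR's quasi-likelihood test) and 0.31 at 100 nM (SE 0.067, adjusted p = 0.00134), which is 1.24-fold with a 95% interval from 1.12 to 1.36. Leaving out any single library kept Actl6a called at 100 nM.

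Smarcc2 stood at 6.86 and 6.5 RPKM at 0 nM, 6 and 6.6 at 0.3 nM, 7.09 and 7.15 at 1 nM, 7.02 and 7.57 at 3 nM, 8.68 and 8.04 at 10 nM, then 8.63 and 8.58 at 100 nM. The libraries at 10 and 100 nM did not overlap those of any lower dose. The log2 fold change was 0.32 at 10 nM (SE 0.11, adjusted p = 0.0385 by edgeR) and 0.36 at 100 nM (SE 0.11, adjusted p = 0.0145), or 1.29-fold with an interval from 1.1 to 1.5. The call at 100 nM was lost without 0 nM replicate 2 (edgeR adjusted p = 0.115), without 100 nM replicate 1 (0.0706) or without 100 nM replicate 2 (0.0644). With 171 to 264 counts per library, Smarcc2 was one of the 2 most thinly counted genes of the 10, and Brd9, with 176 to 249 counts, was the other.

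Smarcc1, the abundant partner of Smarcc2, changed by less. It was at 95.5 and 95.6 RPKM at 0 nM, 98.3 and 95.5 at 0.3 nM, 92.6 and 91.8 at 1 nM, 90 and 94.1 at 3 nM, 96.4 and 104 at 10 nM, then 104 and 108 at 100 nM. The libraries at 1 and 3 nM were the lowest, and those at 100 nM lay above those at 0 nM. The log2 fold change at 100 nM was 0.15 (SE 0.053, edgeR adjusted p = 0.0469), close to the threshold, and the call was lost in turn without each library of 0, 0.3, 1 or 100 nM, with adjusted p from 0.0605 to 0.266.

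Smarce1 and Smarcb1 were not called at any dose. Smarce1 was at 25.1 and 28.6 RPKM at 0 nM, 29.7 and 29.2 at 0.3 nM, 32.2 and 33.4 at 1 nM, 27.9 and 31.6 at 3 nM, 28.6 and 31.9 at 10 nM, then 32.7 and 30 at 100 nM. The mean was highest at 1 nM, where the libraries lay above both at 0 nM and the log2 fold change was 0.29 (SE 0.090, edgeR adjusted p = 0.0991). At 100 nM it was 0.22 (SE 0.090, adjusted p = 0.076). A processed pseudogene of Smarce1 is annotated, and read pairs with several alignments were not counted, so its absolute level is uncertain. Smarcb1 was at 50.9 and 57.1 RPKM at 0 nM, 59.5 and 56.6 at 0.3 nM, 54.6 and 53.6 at 1 nM, 59.5 and 50.9 at 3 nM, 54.1 and 50.4 at 10 nM, then 54.7 and 52 at 100 nM. Its groups overlapped throughout, apart from 0.3 nM against 1, 10 and 100 nM, and the interval of the change at 100 nM ran from 0.871-fold to 1.12-fold (log2 fold change -0.02, edgeR adjusted p = 0.916). The sign of this value turned without 0 nM replicate 2 (0.06) and without 100 nM replicate 2 (0.02).

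The PBAF genes did not move as one group. Phf10 was at 33.4 and 29 RPKM at 0 nM, 31.8 and 37.8 at 0.3 nM, 35.7 and 34.9 at 1 nM, 36.3 and 34.6 at 3 nM, 37.3 and 37.9 at 10 nM, then 41.5 and 39.9 at 100 nM. The 100 nM libraries were above all others, and the replicates at 0.3 nM differed by 17.2% of their mean, the widest replicate gap among the 10 genes. The log2 fold change was 0.27 at 10 nM (SE 0.10, edgeR adjusted p = 0.0672) and 0.38 at 100 nM (SE 0.099, adjusted p = 0.00556), or 1.3-fold with an interval from 1.13 to 1.5. The call at 100 nM was lost without 0 nM replicate 2 (adjusted p = 0.125) or without 100 nM replicate 1 (0.0559). In the gene models of the counts table, 190 exonic bases of Phf10 (11.4%) overlap a gene on the other strand, 1600012H06Rik, and since the counting did not use the strand, reads there cannot be assigned to either gene. That gene stood at a mean of 8.22 RPKM and was not called at 100 nM (log2 fold change -0.04, edgeR adjusted p = 0.894). It was the one exon overlap with another gene found for the 10 subunit genes in those models.

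Arid2 was called at 10 nM alone. Its levels were 13.2 and 12 RPKM at 0 nM, 13.7 and 12 at 0.3 nM, 13.6 and 13.2 at 1 nM, 13.5 and 14 at 3 nM, 14.3 and 16 at 10 nM, then 12.8 and 13.7 at 100 nM. Both 10 nM libraries exceeded all others, and the 100 nM libraries overlapped those at 0 nM. The log2 fold change was 0.27 at 10 nM (SE 0.081, edgeR adjusted p = 0.0234) and 0.08 at 100 nM (SE 0.082, adjusted p = 0.561). The difference between 100 and 10 nM, a comparison added after these values were seen, was -0.19 (SE 0.081, adjusted p = 0.329) and did not pass the test. In that comparison 2.37% of all genes and 0 of the 10 subunit genes were called by edgeR, 1 of the 10 having an unadjusted p under 0.05.

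Pbrm1 and Brd7 were not called at any dose. Pbrm1 was at 27.6 and 26.2 RPKM at 0 nM, 26 and 25.8 at 0.3 nM, 25.5 and 25.6 at 1 nM, 26.6 and 27 at 3 nM, 25 and 27.2 at 10 nM, then 24.6 and 26.7 at 100 nM. The libraries at 0 and 100 nM overlapped, and the interval of the change at 100 nM was 0.868-fold to 1.05-fold (log2 fold change -0.07, edgeR adjusted p = 0.488). Brd7 was at 64 and 60.1 RPKM at 0 nM, 66.3 and 64.3 at 0.3 nM, 62.5 and 62.4 at 1 nM, 69.3 and 58.6 at 3 nM, 62.9 and 61.9 at 10 nM, then 61.7 and 56.3 at 100 nM. Its 3 nM replicates differed by 16.7% of their mean, and the interval at 100 nM was 0.85-fold to 1.06-fold (log2 fold change -0.07, edgeR adjusted p = 0.547). A change of 1.5-fold in either direction thus lay outside the intervals of Pbrm1, Brd7 and Smarcb1.

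Brd9, the one ncBAF gene of the set, was lowest at 0 nM. It stood at 13.8 and 13.6 RPKM at 0 nM, 17.1 and 15.1 at 0.3 nM, 15.2 and 15.9 at 1 nM, 14.7 and 16.2 at 3 nM, 16.2 and 15.6 at 10 nM, then 17 and 15.1 at 100 nM. All 10 treated libraries were above both 0 nM libraries, but they showed no order by dose among themselves. The log2 fold changes lay between 0.18 at 3 nM and 0.23 at 0.3 and 100 nM, with an SE near 0.11, and none was called (edgeR adjusted p = 0.149 at 100 nM). Its 176 to 249 counts per library carried a counting error of 6.34% to 7.54%.

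**Figure D2:**
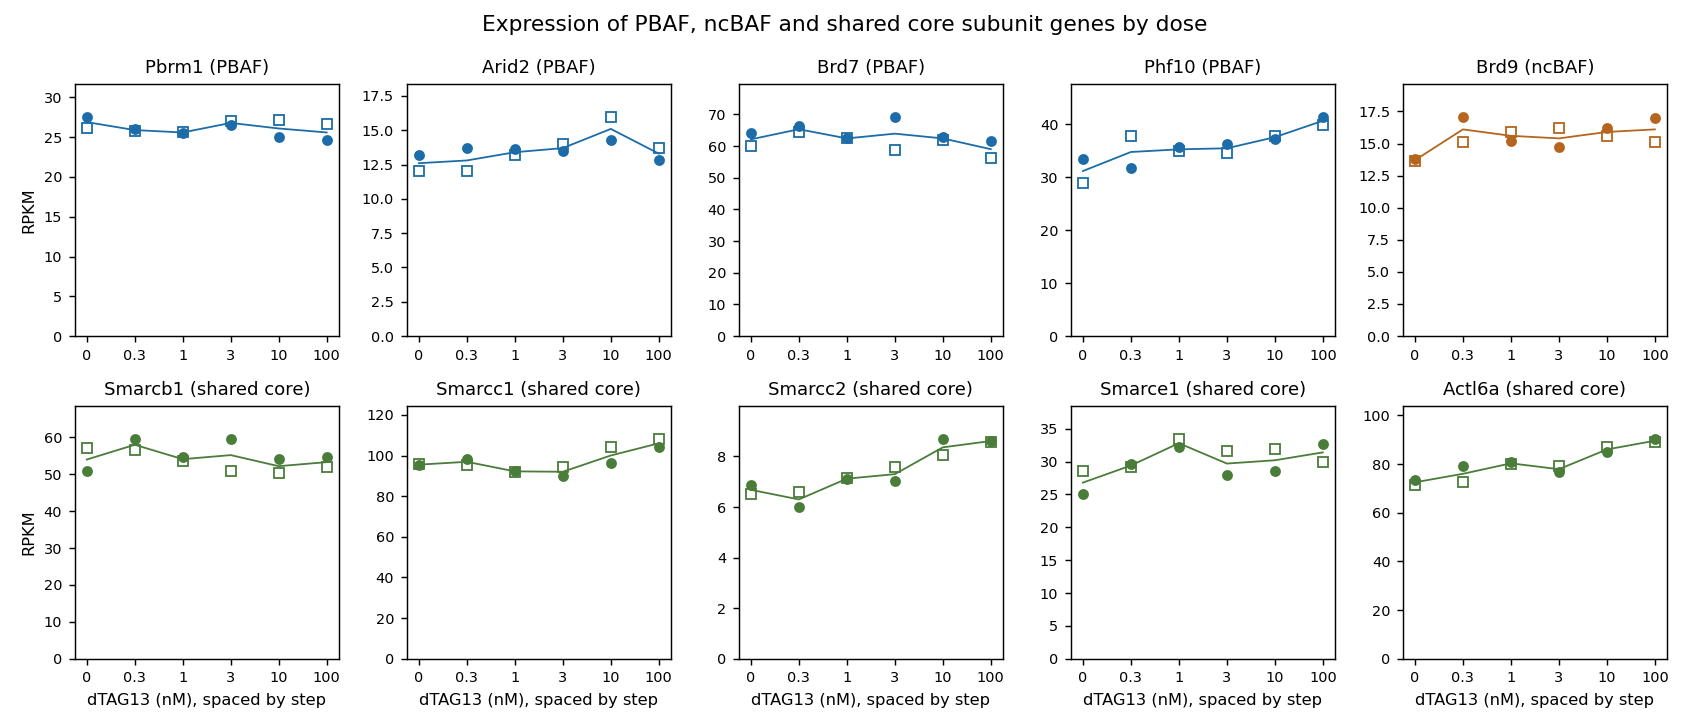
RPKM of the 10 subunit genes at each dTAG13 dose, spaced evenly by step, with replicate 1 as filled circles, replicate 2 as open squares and a line through the means; each panel starts at 0 and has its own scale. Actl6a rises from 72.5 to 89.6 RPKM and Smarcc2 from 6.68 to 8.61 RPKM, Arid2 has its highest mean at 10 nM, and Pbrm1, Brd7 and Smarcb1 stay near their 0 nM levels.

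At the lower doses no subunit gene was called. By edgeR, 0 of 10 were called at 0.3, 1 and 3 nM, where 0.0703%, 2.29% and 9.4% of all genes were called. The numbers with an unadjusted p under 0.05 were 0, 2 and 0, and the likelihood ratio test and DESeq2 also called 0 at each of these doses. At 10 nM, 3 of the 10 rose (Actl6a, Arid2 and Smarcc2) and none fell, beside 17.9% of all genes called, 7.87% as higher and 10.1% as lower. This count of 3 became 1 without 0 nM replicate 1 and 0 without 0 nM replicate 2 or without 10 nM replicate 2. Between 3 and 0.3 nM, which lie in the same run of library numbers, 0 of the 10 genes and 5.31% of all genes were called, and 0 of the 10 had an unadjusted p under 0.05. These comparisons with 0 nM share the same 2 control libraries.

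**Figure D3:**
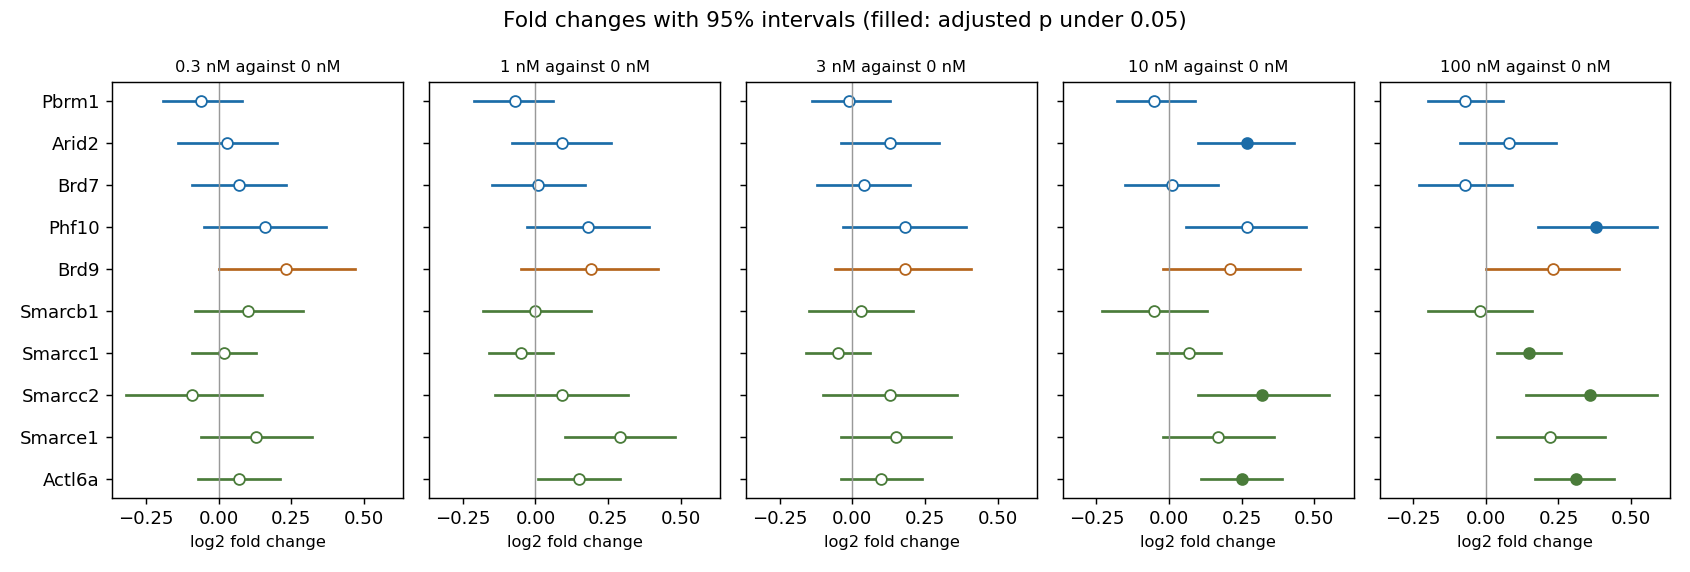
Log2 fold change of each subunit gene against 0 nM at the 5 doses of dTAG13, with bars for the 95% interval; filled points passed an adjusted p of 0.05, and colours mark PBAF (blue), ncBAF (brown) and shared core (green) genes. No point is filled up to 3 nM, 3 are filled at 10 nM and 4 at 100 nM, all of them above 0.

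Across the 5 dose steps from 0 to 100 nM taken as equally spaced, 3 of the 10 genes rose and none fell. Of all genes, 29.3% were called for this slope, 13.6% as rising and 15.7% as falling. Smarcc2 had the steepest slope at 0.088 log2 units per step (SE 0.018, edgeR adjusted p = 0.000699), or 1.36-fold over the whole series by the fitted line. The slope of Phf10 was 0.064 (SE 0.016, adjusted p = 0.00422), or 1.25-fold. That of Actl6a was 0.058 (SE 0.011, adjusted p = 0.00042), or 1.22-fold, these folds also being those of the fitted line. The change at 100 nM itself was 1.29-fold for Smarcc2, 1.3-fold for Phf10 and 1.24-fold for Actl6a. These 3 slopes passed the test under each of 22 alternatives tried, among them every fit that left out 1 library. They also passed in the 8 libraries at 0, 1, 10 and 100 nM alone, which the labels number in a single run (adjusted p = 0.00683 for Smarcc2, 0.00534 for Phf10 and 0.00137 for Actl6a by edgeR).

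The remaining slopes were not called. They were 0.033 per step for Arid2 (edgeR adjusted p = 0.12), 0.030 for both Brd9 (0.254) and Smarce1 (0.19), and 0.025 for Smarcc1 (0.0886). The slope of Arid2 passed without 100 nM replicate 1 (adjusted p = 0.0316), and that of Smarcc1 without 3 nM replicate 1 (0.0484). For the genes with a negative estimate the 95% interval of the slope was -0.030 to 0.016 for Pbrm1, -0.043 to 0.013 for Brd7 and -0.046 to 0.016 for Smarcb1.

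For some pairs of subunit genes, the ratio of their RPKM values was followed within each library, as a description. The ratio of Smarcc1 to its paralog Smarcc2 was 13.9 and 14.7 at 0 nM and 12 and 12.6 at 100 nM, and the libraries did not overlap. The ratio of the PBAF bromodomain gene Brd7 to the ncBAF bromodomain gene Brd9 was 4.64 and 4.42 at 0 nM and 3.63 and 3.72 at 100 nM, again without overlap. Pbrm1 over Arid2 had its lowest values, 1.74 and 1.7, at 10 nM, beside 2.1 and 2.18 at 0 nM. Smarcb1 over Smarcc1 was 0.533 and 0.597 at 0 nM and 0.527 and 0.482 at 100 nM, below the 0 nM libraries in both replicates. The libraries of 0 and 100 nM also lay apart for 61.7% of all single genes tested. No such share was computed for ratios.

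**Figure D4:**
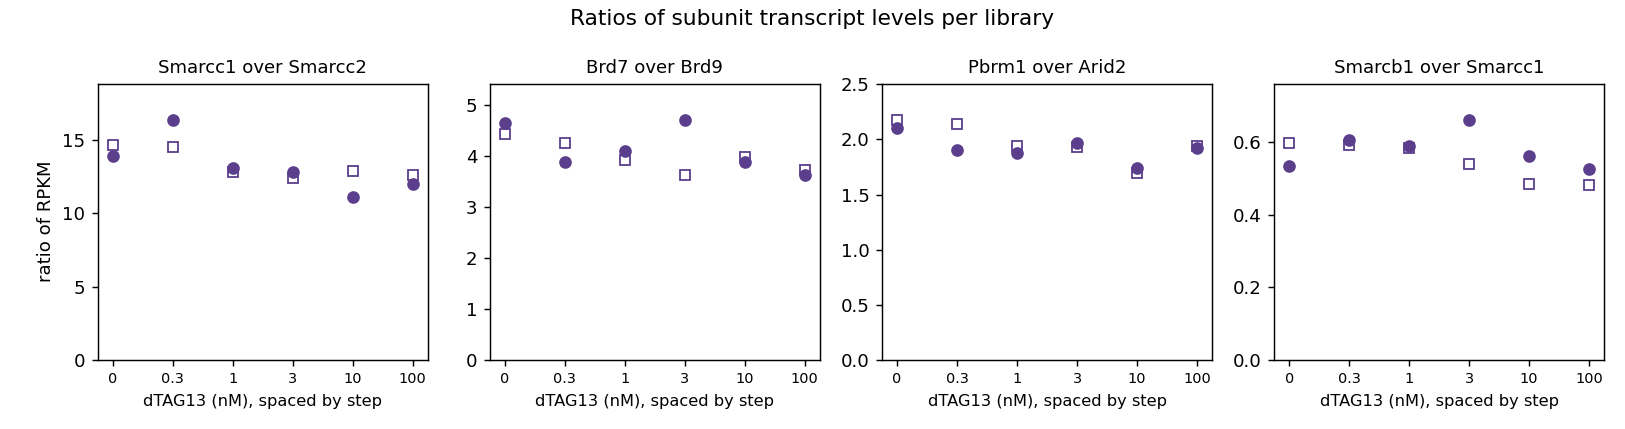
Ratio of RPKM values of paired subunit genes in each library by dTAG13 dose, with replicate 1 as filled circles and replicate 2 as open squares and each axis starting at 0. The mean of Smarcc1 over Smarcc2 goes from 14.3 at 0 nM to 12.3 at 100 nM and that of Brd7 over Brd9 from 4.53 to 3.68.

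The other mSWI/SNF genes were counted for comparison: 19 were listed and 16 were tested, the ATPase gene Smarca2 (BRM) and the neuronal-type subunit genes Dpf3 and Actl6b being under the filter. At 100 nM, 4 of the 16 rose and 2 fell, beside 10.1% of all genes called higher and 13.3% called lower. Along the dose steps 3 rose and 4 fell, beside 13.6% of all genes rising and 15.7% falling. The count of 6 at 100 nM was 3 without 0 nM replicate 1 or without 100 nM replicate 1. Smarca4, the tagged gene itself, was at 64.2 and 63.5 RPKM at 0 nM and at 71.3 and 71.2 RPKM at 100 nM (log2 fold change 0.16, SE 0.055, edgeR adjusted p = 0.0389). This transcript level does not check the degradation, which acts on the protein. Smarca2 remained below Smarca4 throughout, at a mean of 0.995 RPKM in the controls (SD 0.348, n = 2) and 0.771 RPKM with 100 nM (SD 0.026, n = 2).

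Of the cBAF genes, Arid1a, which encodes the ARID-domain subunit of cBAF, rose from 46.5 and 46.6 RPKM to 56.3 and 54.1 RPKM at 100 nM (log2 fold change 0.25, edgeR adjusted p = 0.00134). Ss18, shared by cBAF and ncBAF, rose from 39.2 and 40.8 RPKM to 51.5 and 52.1 RPKM (0.37, adjusted p = 0.000187). Bcl7c, a subunit found across the complexes, rose from 13.5 and 12.6 RPKM to 18.9 and 18.5 RPKM (0.51, adjusted p = 0.0263). Smarcd3, which encodes BAF60C, showed the one change past 1.5-fold: it fell from 10.4 and 8.02 RPKM to 4.32 and 5.88 RPKM (-0.84, adjusted p = 0.00274). Actb, the actin gene whose product is also a subunit, fell from 1760 and 1800 RPKM to 1500 and 1430 RPKM (-0.28, adjusted p = 1.98e-05). Smarcd2 and Dpf2 fell along the dose steps but were not called at 100 nM (-0.23 with adjusted p = 0.106 and -0.20 with adjusted p = 0.174).

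For Actl6a and Smarcc2, the subunit genes with the smallest slope p, the genes with the most similar pattern were looked up over the 12 libraries. By Pearson's r of log2(RPKM + 0.1), those closest to Actl6a were Zfp281 (0.964), Kdm5b (0.949) and Mtus1 (0.949), and those closest to Smarcc2 were Slc23a2 (0.965), Lamc1 (0.964) and Igdcc4 (0.96). Among the subunit genes the closest pairs were Actl6a and Smarcc2 (0.83), Phf10 and Smarcc2 (0.76) and Phf10 and Actl6a (0.73), and the most opposed pair was Smarcb1 and Smarcc2 (-0.56). These values describe libraries that share their doses, depth and scaling.

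Totals ran from 4663484 to 6375582 counts per library, of which the ribosomal transcript Rn45s took 10.5% to 19.4%, and the 3 nM replicate 1 library had both the lowest total and the lowest Rn45s share. The 10 markers of naive mES cells summed to 1350 to 1480 RPKM in every library, but this sum hides changes in both directions. At 100 nM 2 of them were called higher, Nanog (229 to 329 RPKM) and Klf4 (86.6 to 105). The 4 called lower were Tcl1 (14.5 to 1.81 RPKM), Tfcp2l1 (131 to 84), Pou5f1 (573 to 507) and Esrrb (125 to 111). The calls of Pou5f1 and Esrrb were near the threshold, each with a log2 fold change of -0.17 (edgeR adjusted p = 0.0301 and 0.0433). The study, whose calls also ask for a change of 1.5-fold, describes Pou5f1 (Oct4) as unchanged. Of 7 neural markers, 3 were tested and 2 rose at 100 nM, Tubb3 from 32.4 to 59.3 RPKM and Nes from 2.01 to 5.52 RPKM. The neural sum climbed from 37.1 to 41.4 RPKM at 0 nM to 69.5 to 71.8 RPKM at 100 nM, and Tubb3 made up most of it. The other tested neural marker, Sox1, was not called (3.27 to 3.57 RPKM, adjusted p = 0.642 by edgeR). The untested neural markers had a mean over all libraries below the filter, which does not show whether they changed. Among them, Pax6 had a mean of 0.0522 RPKM in the controls and 0.968 RPKM with 100 nM. Neurod1, Neurog2 and Map2 had lower means with 100 nM than in the controls. These differences were not tested. Of 7 trophectoderm markers, 4 were tested and 3 rose, with Cdx2 going from 0.552 to 4.76 RPKM and the sum from 17.8 to 20.1 RPKM at 0 nM to 25.7 to 28.1 RPKM at 100 nM. The sums of primitive endoderm (1.34 to 2.87 RPKM), fibroblast (1.34 to 4.41 RPKM) and mesoderm markers (5.48 to 10.9 RPKM) were low in every library. Each was higher at 100 nM than at 0 nM. The primitive endoderm sum was 2.53 to 2.87 RPKM against 1.84 to 2.29. That of fibroblast markers was 3.74 to 4.41 against 2.83 to 3.62, and that of mesoderm markers 9.07 to 10.8 against 5.48 to 7.86. These sums were not tested. The tested genes of these lists were 1 mesoderm and 1 fibroblast marker, neither called at 100 nM, and the mesoderm marker Msgn1 was at 0 in the 0 and 100 nM libraries. The part of these markers in the changes of the subunit genes was not tested. In bulk RNA, more cells with a transcript cannot be told apart from more of that transcript per cell.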

How the data were processed

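RNA-seq of 12 libraries at 6 doses was analysed. The counts deposited by the authors are raw numbers of read pairs for each gene on mm10, with exon lengths. Reads were trimmed with Trim Galore, aligned with HISAT2 and counted on exons with featureCounts 2.0.1, without strand and without multi-mapped pairs. Reads carry no molecular identifiers, so counting errors cover counting only. The 6 doses were fitted together with edgeR 4.0.16 (R 4.3.3, limma 3.58.1; TMM scaling; biological coefficient of variation 6.2%) and tested by its quasi-likelihood test, with p-values adjusted (Benjamini-Hochberg) over the 11378 genes whose mean reached 1 RPKM. RPKM used the library sizes and factors of that fit. The slope used the rank of the dose. Intervals are 95%. The alternatives included edgeR's likelihood ratio test, which the study's methods name, and DESeq2 1.42.0. The steps were tested on simulated counts. All 10 subunit genes are named, with Smarca4, Smarca2, the other mSWI/SNF genes called at 100 nM or along the steps, and, for the 2 subunit genes with the smallest slope p, the 3 genes of most similar pattern. Neighbours of the subunit genes and the marker genes given were named after their values were seen. The subunit genes and gene lists were chosen with earlier results of these data known. Raw counts of the 2 libraries of a dose, scaled by totals alone and with Rn45s included, differed by more than sampling noise (chi-square per degree of freedom 2.02 to 17.5). The value of 17.5 was at 3 nM, where Rn45s took 10.5% and 19% of the counts. The part of Rn45s in these values was not computed, so they do not measure the spread of a typical gene. Promoter sequences are RefSeq's.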

Additional observations from a re-analysis of the deposited data

How the results depend on the processing

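Of 450 single-gene values under other settings, 417 kept their direction and their side of the threshold, 25 lost the call, 3 gained it and 5 changed sign. Of 202 counts, 187 stayed within 1.5 times the reported count. The 3 subunit genes called at 10 nM became 1 with DESeq2, 0 with no filter on low values and 0 with a fold change over 1.5, and ran from 0 to 3 when single libraries were left out. The 4 called at 100 nM became 2 with DESeq2, 2 with no filter and 0 with the fold minimum, and ran from 1 to 4 without single libraries. The 6 other mSWI/SNF genes called at 100 nM became 1 with the fold minimum and ran from 3 to 6 without single libraries. Sign changes concerned values near 0: Smarcb1 at 100 nM without normalization factors (0.03) and without single libraries (-0.10 to 0.06), Arid2 at 100 nM with no filter (-0.01), and the slope of Pbrm1 without normalization factors (0.005). The cause was not tested. Over 23 alternatives the adjusted p at 100 nM was 0.000726 to 0.0297 for Actl6a, 0.004 to 0.125 for Phf10, 0.0108 to 0.124 for Smarcc2 and 0.0226 to 0.52 for Smarcc1, which lost its call in 15. Over 22 alternatives the slope's adjusted p was 1.36e-05 to 0.0205 for Actl6a, 8.63e-05 to 0.00811 for Smarcc2 and 0.00144 to 0.0498 for Phf10. Against the scaling used, TMM over all genes shifted log2 fold changes at 100 nM by -0.08, the upper quartile by 0.02 and library totals by 0.04.

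Libraries of the same replicate number did not deviate together over all tested genes (15 pairs of doses, r from -0.095 to 0.093). No strong effect common to a replicate number was thus seen, but these values cannot tell whether the cultures were paired. With the replicate block, 3 subunit genes were called at 10 nM, 3 at 100 nM and 3 along the dose steps. Smarcc1 was the one that lost its call at 100 nM (adjusted p = 0.052 by edgeR). Fits without 1 library assume that the lone library of its dose varies like the other doses. Depth limits Smarcc2 (171 to 264 counts per library) and Brd9 (176 to 249) more than the other subunit genes.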

Other observations

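Gltscr1l (Bicral), whose product is an ncBAF subunit like BRD9, was chosen here after its values were seen. It stood at 12.3 and 12.9 RPKM at 0 nM, 14.1 and 14.2 at 0.3 nM, 13.6 and 15.2 at 1 nM, 17.1 and 15 at 3 nM, 16.4 and 17.1 at 10 nM, then 13.3 and 13.2 at 100 nM. The level was thus highest at 3 and 10 nM and returned near the 0 nM level at 100 nM. By edgeR's quasi-likelihood test it rose at 3 nM (log2 fold change 0.34, adjusted p = 0.00916) and 10 nM (0.41, adjusted p = 0.000959) and fell between 10 and 100 nM (-0.33, adjusted p = 0.0277). The comparison of 3 nM with 0 nM crosses the runs of library numbers, and within one run, 3 nM against 0.3 nM, it was not called (0.18, adjusted p = 0.248). Its level at 100 nM did not pass the test against 0 nM (0.07, adjusted p = 0.588). Arid2 of PBAF also had its highest libraries at 10 nM, with a difference between 100 and 10 nM that did not pass the test (-0.19, adjusted p = 0.329 by edgeR).

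The genes that share a start region with subunit genes were also chosen after the fact. Trip13, a meiotic checkpoint ATPase gene that starts 44 bases from Brd9 on the other strand, rose at 100 nM (log2 fold change 0.33, adjusted p = 0.00928 by edgeR), where Brd9 had 0.23 (adjusted p = 0.149). Gnl3, a nucleolar GTPase gene that starts 7 bases from Pbrm1, had 0.06 at 100 nM (adjusted p = 0.582), where Pbrm1 had -0.07 (adjusted p = 0.488).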
